A study of Rattus norvegicus with 15 samples.

Results

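The Reg genes encode small secreted proteins of the C-type lectin fold. Their levels were followed rat by rat in the proximal small intestine of normal, diabetic and surgically bypassed rats. The members were the probes outside the array's controls whose gene name in the array files was Reg1a, Reg3a, Reg3b, Reg3g or Reg4, or an older alias. This gave 5 probes, 1 for each of the 5 genes, out of 41012 probes outside the controls. All 5 were among the 17029 named probes that entered the fit, which required a signal well above background in all 5 rats of some group. The genes were chosen by their log2 levels and group differences in these same arrays, so their values are given below as a description, with standard errors and with no test.

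Whole-genome expression was measured on 15 arrays, 5 for each of 3 groups of male rats, all killed after an overnight fast. Wistar rats were the age-matched, unoperated normal control. GK rats (Goto-Kakizaki, a nonobese strain that becomes diabetic spontaneously) were operated at 16 wk and sampled 14 wk postoperation. In the GK-S-30 group the surgery was Roux-en-Y gastric bypass (RYGB) with a Roux limb (RL) of 30 cm, which joins the jejunum to the upper stomach pouch so that food reaches it without bile or pancreatic juice, and a 5 cm piece of that limb was taken 5 cm from the join. GK-Sham-PF rats had the jejunum cut and rejoined without rearrangement and were pair-fed, and the matching piece lay 21 to 26 cm beyond the ligament of Treitz, as it did in Wistar rats. Both operated groups received buprenorphine, ampicillin and a liquid diet in the first days after surgery. GK-Sham-PF and Wistar rats therefore differed in strain, operation, drug treatment and feeding, which cannot be told apart. The bypassed (GK-S-30) and sham-operated (GK-Sham-PF) rats shared strain and drug treatment. They differed in the division of the stomach, the route of food and the pair-feeding, which cannot be told apart either.

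In the intestine, Reg3b and Reg3g are released by enterocytes and Paneth cells, bind bacterial surfaces and keep microbes away from the epithelium. Their transcription is driven by IL-22 acting through STAT3 and by microbial signals, and both rise in injury and inflammation. Reg1a was first known from regenerating pancreatic islets and is also made in injured gastrointestinal mucosa. Reg3a is a pancreatitis-associated relative of Reg3b and Reg3g, and Reg4 marks enteroendocrine and deep crypt secretory cells. Acinar cells of the pancreas make several of these proteins too.

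Each gene was read by a single 60-base probe, so the probe sequences are shown first because all levels below rest on them. Reg3b and Reg4 are given whole, and the first 30 bases are given for the remaining ones. Positions are those of the array files, on rat build rn4, and fell at chr4:112357807-112358789 for Reg3b, chr4:112418369-112418428 for Reg3g, chr4:112389044-112389103 for Reg1a, chr4:112368639-112368698 for Reg3a and chr2:193071384-193071443 for Reg4. The Reg3b probe spanned 983 bases of the genome and so lay across an exon junction, whereas each of the others matched 60 unbroken bases. The longest run of bases that the Reg3b and Reg3g probes shared was 6, and no pair of the 5 probes shared more than 9. The probes were compared with each other and not with whole transcripts, so binding of a probe to the RNA of another member was not tested.
Reg3b probe: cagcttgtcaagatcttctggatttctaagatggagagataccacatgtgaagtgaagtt
Reg4 probe: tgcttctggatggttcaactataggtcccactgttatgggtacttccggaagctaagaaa
Reg3g probe, first bases: caatgggaagatcaacaacaacaacaaaaa
Reg1a probe, first bases: caagaaaatactatggagtcaaaagtgaaa
Reg3a probe, first bases: tgcatcagacttgctgttatgattttccat

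Of the 5 genes, 4 lay side by side within 65 kb on chromosome 4 of RefSeq build GRCr8, in a cluster from 112419776 to 112484738 that held Reg3b, Reg3a, Reg1a and Reg3g in this order. Reg4 lay apart at chr2:188507684-188521990. The 250 bases upstream of the start are shown for Reg3b, Reg3g and Reg1a, whose levels were high in every GK-S-30 rat, and the last 80 upstream bases for Reg3a and Reg4, whose levels were not. The sequences come from RefSeq on GRCr8, where all 5 genes had an entry. Capitals mark TATAAA, the STAT-type element TTCNNNGAA and the longest run shared by Reg3b and Reg3g. Reg3b was taken from chr4:112419526-112419775 on the plus strand, Reg3g from chr4:112484739-112484988 on the minus strand, Reg1a from chr4:112450216-112450465, Reg3a from chr4:112430317-112430396 and Reg4 from chr2:188507604-188507683, with Reg1a, Reg3a and Reg4 on the plus strand.
Reg3b: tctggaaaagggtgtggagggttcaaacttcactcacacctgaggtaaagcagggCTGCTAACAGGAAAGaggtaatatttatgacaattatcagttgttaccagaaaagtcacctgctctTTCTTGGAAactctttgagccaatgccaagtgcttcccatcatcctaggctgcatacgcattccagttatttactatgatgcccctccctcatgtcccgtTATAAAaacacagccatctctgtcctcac
Reg3g: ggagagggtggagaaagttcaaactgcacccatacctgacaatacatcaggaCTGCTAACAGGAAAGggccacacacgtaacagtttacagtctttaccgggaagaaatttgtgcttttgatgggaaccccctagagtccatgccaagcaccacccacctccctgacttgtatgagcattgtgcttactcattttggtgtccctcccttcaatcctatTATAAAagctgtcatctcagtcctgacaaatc
Reg1a: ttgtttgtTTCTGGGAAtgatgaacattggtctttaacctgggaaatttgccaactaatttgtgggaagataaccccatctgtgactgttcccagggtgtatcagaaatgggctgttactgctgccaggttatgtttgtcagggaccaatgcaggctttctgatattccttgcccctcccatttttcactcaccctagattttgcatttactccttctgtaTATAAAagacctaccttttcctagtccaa
Reg3a: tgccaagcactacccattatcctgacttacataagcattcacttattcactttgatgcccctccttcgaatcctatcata
Reg4: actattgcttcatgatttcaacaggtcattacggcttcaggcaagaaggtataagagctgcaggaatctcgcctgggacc

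TATAAA, the classical TATA box, began 29 bases upstream of the start in Reg3b and Reg1a and 32 bases upstream in Reg3g, and it had no match in the 250 upstream bases of Reg3a or Reg4. Only this exact string was searched, so TATA-like variants in Reg3a or Reg4 were not looked for. Reg3a had a further entry 27 bases downstream of the one shown, and its window held no match either. Over the 33469 promoters of the table, 12.9% held TATAAA on either strand of these 250 bases and 1.37% held it on the gene's own strand with its first base 40 to 20 bases upstream. TTCNNNGAA, which reads the same on both strands, began 129 bases upstream in Reg3b and 242 bases upstream in Reg1a, was not found in Reg3g, Reg3a or Reg4, and was present in 7.67% of all promoters. CTGCTAACAGGAAAG, 15 bases long, began 195 bases upstream in Reg3b and 198 bases upstream in Reg3g, and only these 2 of all 33469 promoters held it on either strand. It was found as the longest run common to both and is a description of that pair. The NF-kB consensus, searched as 1 fixed string of 10 bases, and TTGCNNCAA, a motif of C/EBP factors, had no match in any of the 5, on either strand, and were present in 0.0956% and 1.75% of all promoters. All motifs were searched after the levels were known, and a match or its lack in these windows shows nothing about binding.

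The arrays were of similar quality, with 66.7% to 74.8% of probes well above background. The 75th percentile of the processed signal was 207 on the array of Wistar rat 3 and 208 on that of GK-Sham-PF rat 5, against 302 to 357 on the other arrays. The arrays came on 4 slides, of which 2 held more than 1 group: slide B held 3 sham-operated rats and 1 Wistar rat, and slide C held 2 bypassed and 2 sham-operated rats. All 5 Reg probes were well above background on all 15 arrays and none was saturated. Reg3b and Reg3g were bright enough in 7 rats, GK-Sham-PF 3 and 5 and all GK-S-30 rats, for the scanner's low-gain scan to be used in place of the high-gain one. Levels are log2 values of the processed signal after quantile normalization between arrays, so a difference of 1 is a doubling, and each probe is compared only with itself.

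Reg3b, an antibacterial lectin, was high in every bypassed rat and in some of the sham-operated rats. Its level in Wistar rats 1 to 5 was 11.58, 13.33, 13.88, 13.56 and 13.14. In GK-Sham-PF rats 1 to 5 it was 12.49, 14.05, 17.38, 13.50 and 17.96. In GK-S-30 rats 1 to 5 it was 17.79, 17.47, 18.09, 17.99 and 17.81. GK-Sham-PF rats 3 and 5 thus sat at the level of the bypassed rats, with rat 5 inside their range and rat 3 just under it, and the rest sat in or just above the Wistar range. The spread followed this pattern, with an SD of 0.89 in Wistar, 2.44 in sham-operated and 0.24 in bypassed rats (n = 5 each). On the linear scale the signal of GK-S-30 rats ran from 181680 to 278491, a 1.53-fold range, whereas that of GK-Sham-PF rats ran from 5762 to 254889, a 44.2-fold range.

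Reg3g, the closest relative of Reg3b in function and the member best known as a Gram-positive-binding lectin, showed the same division of the rats. In Wistar rats 1 to 5 it read 9.25, 10.16, 11.49, 10.92 and 10.77. In GK-Sham-PF rats 1 to 5 it read 10.08, 11.21, 14.93, 11.10 and 16.55. In GK-S-30 rats 1 to 5 it read 16.16, 16.27, 16.88, 16.60 and 16.78. Again GK-Sham-PF rats 3 and 5 were high, but here rat 3 lay below all bypassed rats and rat 5 within their range. Every GK-S-30 rat was above every Wistar rat. The SD was 0.85 in Wistar, 2.80 in sham-operated and 0.31 in bypassed rats, so that the GK-Sham-PF mean of 12.78 fell in the gap between rats at about the Wistar level and rats near the bypassed level.

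**Figure D1:**
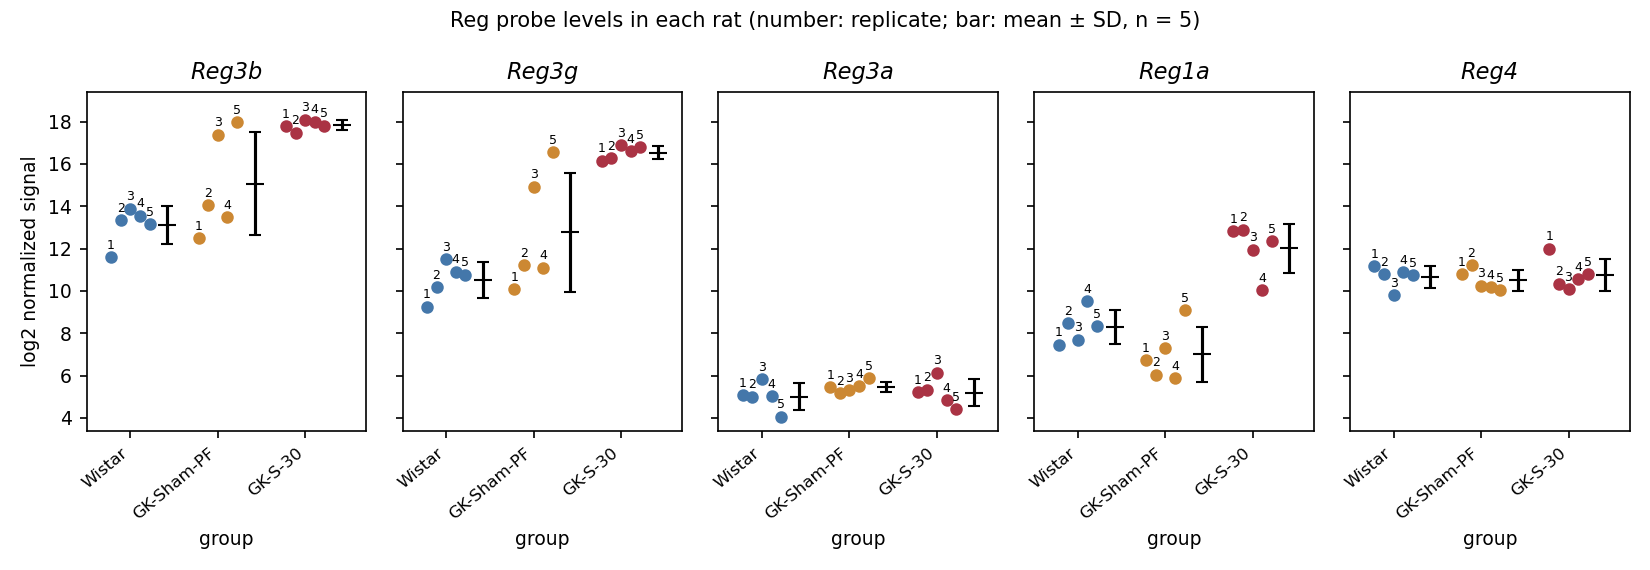
The log2 normalized signal (y axis, common to all panels) of the 5 Reg probes in each of 5 GK-S-30, 5 GK-Sham-PF and 5 Wistar rats, with the replicate number above each point and the mean ± SD beside each group. Reg3b and Reg3g were high in GK-Sham-PF rats 3 and 5 and in all GK-S-30 rats, Reg1a was high in GK-S-30 rats alone, and Reg3a and Reg4 overlapped in all groups. Heights are comparable within a panel, not between panels.

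Reg3b and Reg3g moved together from rat to rat. Over the 15 arrays their log2 levels had a Pearson correlation of 0.991, and of 0.977 after each group's mean was removed, a description in which both probes share the array and its normalization and the points fall into 2 clouds. The upper cloud held the 5 GK-S-30 rats and GK-Sham-PF rats 3 and 5, and the lower cloud held the 5 Wistar rats and GK-Sham-PF rats 1, 2 and 4. Even Wistar rat 1, the lowest of all 15 rats for Reg3b, was also the lowest for Reg3g. GK-Sham-PF rat 3 was on slide B and rat 5 on slide C, and each slide also held a GK-Sham-PF rat of the lower cloud. The array of rat 5 was one of the 2 dimmer arrays, whereas that of rat 3 had a 75th percentile of 347, inside the range of the other arrays. The labels give nothing that sets these 2 rats apart from the rest of their group.

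**Figure D2:**
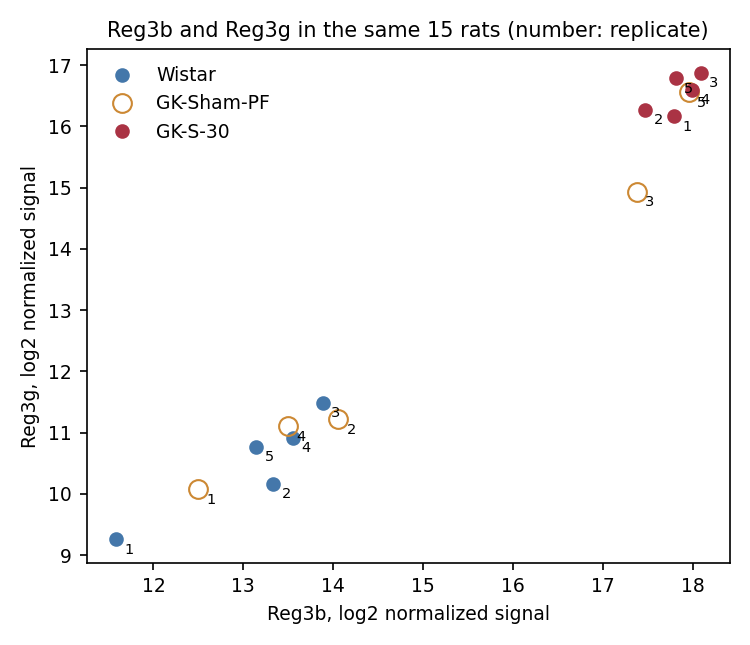
Reg3b (x axis) against Reg3g (y axis), both as log2 normalized signal, in the 15 rats, with open circles for GK-Sham-PF rats and the replicate number beside each point. GK-Sham-PF rats 3 and 5 lie with the 5 GK-S-30 rats, and no rat lies between 14.05 and 17.38 on the Reg3b axis.

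Reg1a, the regenerating-islet member, was high in the bypassed rats without exception and was not high in GK-Sham-PF rats 3 and 5 to the extent Reg3b and Reg3g were. In Wistar rats 1 to 5 its level was 7.46, 8.47, 7.71, 9.52 and 8.32. In GK-Sham-PF rats 1 to 5 it was 6.73, 6.04, 7.28, 5.88 and 9.10. In GK-S-30 rats 1 to 5 it was 12.82, 12.89, 11.96, 10.05 and 12.37. The lowest bypassed rat, number 4, was still above the highest Wistar rat, number 4, and the highest GK-Sham-PF rat, number 5. GK-Sham-PF rats 5 and 3 were the highest of their group for Reg1a as well, but both lay within the Wistar range or below it. The correlation of Reg1a over the 15 arrays was 0.71 with Reg3b and 0.751 with Reg3g, and 0.543 and 0.573 without the group means. On the linear scale Reg1a ran from 1060 to 7601 in GK-S-30, from 59.1 to 548 in GK-Sham-PF and from 176 to 733 in Wistar rats.

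The remaining members differed by little. Reg3a, which sits between Reg3b and Reg1a in the cluster, was dim, with levels from 4.05 to 5.84 in Wistar, 5.18 to 5.86 in sham-operated and 4.42 to 6.14 in bypassed rats. Its group means of 5.00 ± 0.63, 5.46 ± 0.26 and 5.19 ± 0.64 (SD, n = 5) lay within the spread of single rats. Reg4, the enteroendocrine member, ran from 9.80 to 11.16 in Wistar, 10.04 to 11.22 in sham-operated and 10.07 to 11.99 in bypassed rats, with means of 10.68 ± 0.52, 10.50 ± 0.50 and 10.75 ± 0.74 (SD, n = 5). All 3 groups overlapped for both genes. Wistar rat 3 and GK-Sham-PF rat 5, whose arrays were dimmer, had the highest Reg3a and the lowest Reg4 level of their groups, and the part of array brightness in these values was not tested. The correlation of Reg3a and Reg4 with each other was -0.461 over the 15 arrays, and those of either with Reg1a, Reg3b or Reg3g ran from -0.17 to 0.194. Without the group means Reg4 stood at -0.400 with Reg3b and -0.466 with Reg3g.

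Between the bypassed and the sham-operated GK rats, which shared the strain but differed in surgery and feeding, Reg1a was 5.01 higher on the log2 scale (SE 0.63), or 32.2-fold. Reg3g was 3.76 higher (SE 0.96), or 13.6-fold, and Reg3b was 2.75 higher (SE 0.85), or 6.75-fold. Reg4 differed by 0.25 (SE 0.34) and Reg3a by -0.27 (SE 0.31). Of the 5 probes only Reg1a had groups that did not overlap, against 8.4% of all probes tested (4.6% higher and 3.8% lower in the bypassed rats), a share that cannot be set against a count that the choice of members rests on. The limma fit called 1424 of 17029 probes, 8.36%, in this pair, and 947 and 937 without GK-Sham-PF rats 1 and 2. On slide C, which held 2 rats of each group, the differences were 5.37 for Reg1a, 2.39 for Reg3g, 1.90 for Reg3b, 1.06 for Reg4 and -0.40 for Reg3a. Leaving out GK-Sham-PF rat 5 alone raised the Reg3b difference to 3.47 and the Reg3g difference to 4.71, and Reg1a rose to 5.53.

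Between sham-operated and Wistar rats the means of Reg3b and Reg3g differed by 1.98 (SE 0.85) and 2.26 (SE 0.96), or 3.94-fold and 4.78-fold, and these differences rested on 2 of the 5 GK-Sham-PF rats. Without GK-Sham-PF rat 5 they were 1.26 and 1.31. Reg1a was lower in GK-Sham-PF rats by -1.29 (SE 0.63), with 4 of the 5 below every Wistar rat. Reg3a differed by 0.46 (SE 0.31) and Reg4 by -0.18 (SE 0.34). None of the 5 probes had groups that did not overlap, beside 9.05% of all probes tested (4.39% higher and 4.66% lower in the sham-operated rats), and the limma fit called 1342 probes, 7.88%, in this pair. On slide B, where the 3 GK-Sham-PF rats stood beside Wistar rat 1, the lowest of all rats for Reg3b and Reg3g, the differences were 3.06 for Reg3b, 2.82 for Reg3g, 0.25 for Reg3a, -0.40 for Reg4 and -0.77 for Reg1a.

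Between bypassed and Wistar rats the largest mean difference was that of Reg3g at 6.02 (SE 0.96), or 64.9-fold. Reg3b was 4.73 higher (SE 0.85), or 26.6-fold, and Reg1a was 3.72 higher (SE 0.63), or 13.2-fold. Reg3a differed by 0.19 (SE 0.31) and Reg4 by 0.07 (SE 0.34). Reg3g, Reg3b and Reg1a had groups that did not overlap, 3 of 5 probes, beside 18.3% of all probes tested (9.13% higher and 9.15% lower in the bypassed rats). The fit called 4101 probes, 24.1%, in this pair. No slide held both groups, so slide and group cannot be told apart within it. With slide as a fixed block, which links these groups through the GK-Sham-PF rats, Reg3g was 5.21, Reg3b 4.96 and Reg1a 4.59 higher. These values rest on slides B and C alone, with 1 Wistar rat, the lowest of all for Reg3b and Reg3g, and 2 bypassed rats. The remaining Wistar and bypassed rats add nothing to them.

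**Figure D3:**
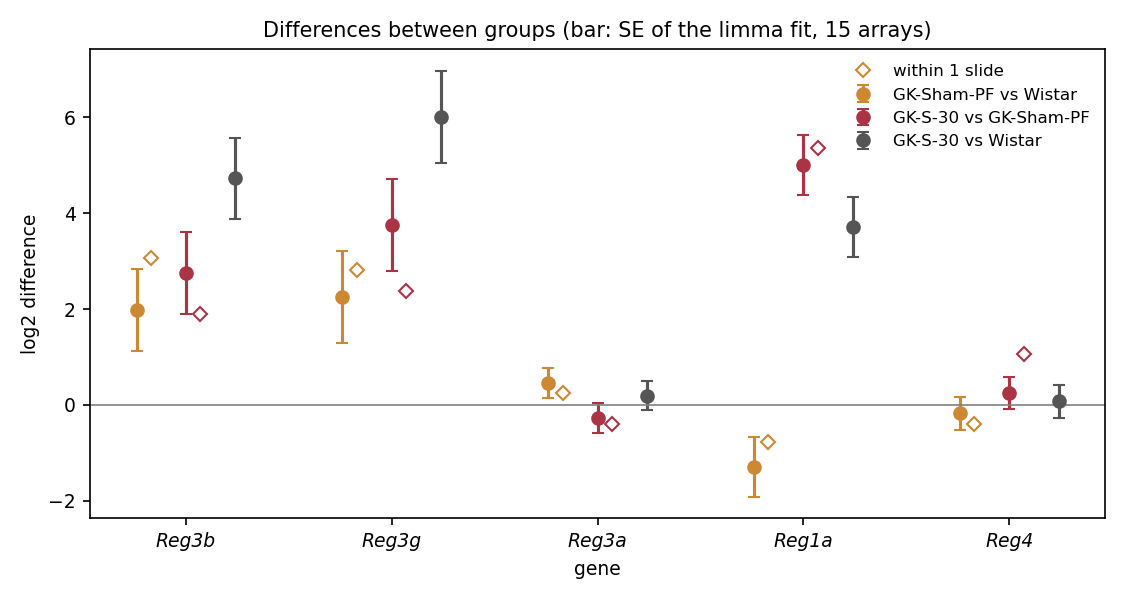
Log2 difference between group means (y axis) of each Reg probe for the 3 pairs of groups, with the SE of the limma fit over 15 arrays as bars, and open diamonds for the difference within the 1 slide that held both groups. Reg3b and Reg3g stood above 0 in all 3 pairs, Reg1a stood above 0 in both pairs that hold GK-S-30 and below 0 between sham-operated and Wistar rats, and Reg3a and Reg4 stayed close to 0 but for the Reg4 value of 1.06 within a slide.

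Ordered by group mean, Reg3b and Reg3g ran from Wistar through GK-Sham-PF to GK-S-30, whereas Reg1a ran from GK-Sham-PF through Wistar to GK-S-30. For Reg1a the lower neighbours overlapped and the upper did not. For Reg3b and Reg3g both steps overlapped, and only the step from end to end did not. In bulk tissue, more RNA per cell and more cells that make the RNA cannot be told apart, and this holds for every difference above.

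The known inducers were looked at from a list of 20 cytokines and receptors of the IL-22, IL-17 and IL-6 families. Il22 itself was not analysed here, and Il17a, Il23a and Il11 were well above background on 0 of 15 arrays and Il6 on 3. Of the 11 genes tested, 0 were higher and 1 was lower in bypassed than in sham-operated rats, beside 4.77% and 3.59% of all probes. The one that fell was Il22ra2, the soluble decoy receptor for IL-22, at -0.88 (SE 0.25, adjusted p = 0.0438 by limma), and this call was lost with slide or replicate number as a fixed block, kept with slide as a random block, lost with any of 11 single arrays left out, and kept without Wistar rat 1 or 3, GK-Sham-PF rat 3 or GK-S-30 rat 1. Il22ra1, the signalling receptor of the epithelium, differed by -0.24 (SE 0.20, adjusted p = 0.532). The median difference of the list was -0.03, against -0.02 for all probes. In GK-Sham-PF against Wistar rats 0 of 11 passed limma's adjusted threshold, and in GK-S-30 against Wistar rats 2 did, both lower: Il22ra2 at -0.98 and Il6st, the shared gp130 subunit, at -0.38. Of all probes, 7.88% and 24.1% passed in these pairs.

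Of 14 tested genes of JAK-STAT3 signalling, 0 were higher and 1 was lower in bypassed than in sham-operated rats. Over all probes 4.77% were higher and 3.59% lower. Of the 14, 0 passed without GK-Sham-PF rat 1 or 3 or GK-S-30 rat 1 or 5. Between bypassed and sham-operated rats Stat3, the factor through which IL-22 acts, differed by -0.08 (SE 0.12), and Socs3, its feedback inhibitor, by -0.55 (SE 0.44). Socs2 fell by 1.05 on the log2 scale in GK-Sham-PF against Wistar rats (SE 0.16, adjusted p = 0.000391), the only one of the 14 in that pair. That is 7.14% of the list beside 7.88% of all probes. In GK-S-30 against Wistar rats Socs1 rose by 0.83, and Socs2, Stat5a and Pias1 fell, which is 28.6% of the list beside 24.1% of all probes. Socs3 in GK-Sham-PF rats 1 to 5 read 6.64, 7.03, 7.20, 6.76 and 7.65, so that rats 3 and 5 were its highest, within a Wistar range of 4.95 to 7.58 but for rat 5. With slide as a fixed block 0 of these 14 genes passed in any pair.

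Among 17 tested genes of microbial sensing, 1 was higher and 1 lower in bypassed than in sham-operated rats. Together they were 11.8% of the list, beside 8.36% of all probes. Ly96, the co-receptor of Tlr4 for lipopolysaccharide, rose by 0.58 (SE 0.12, adjusted p = 0.00756), and Nfkbia, the inhibitor of NF-kB, fell by 0.36 (SE 0.10, adjusted p = 0.044). Nfkbia read 12.43 to 12.88 in Wistar, 13.06 to 13.39 in sham-operated and 12.74 to 13.05 in bypassed rats. With any of 10 single arrays left out the count was 1 instead of 2, and with slide as a fixed block 0 passed. Tlr4 was 0.90 higher in GK-Sham-PF than in Wistar rats (SE 0.21, adjusted p = 0.0135) and 1.22 higher in GK-S-30 than in Wistar rats. Traf6, an adaptor below the Toll-like receptors, was lower than in Wistar rats in both GK groups, by -1.23 and -1.54. Myd88 differed by -0.11 (SE 0.21) between bypassed and sham-operated rats. Extl3, an exostosin-like protein proposed as a receptor for Reg proteins, differed by 0.01, -0.07 and -0.06 in the 3 pairs (SE 0.25 each). Of 12 tested genes of Reg receptors and growth signalling, Bcl2l1 alone passed, at 0.48 against GK-Sham-PF and 0.57 against Wistar rats, and the first of these calls was lost without GK-Sham-PF rat 2. It was 8.33% of the list in each pair, beside 8.36% and 24.1% of all probes.

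The list of epithelial defence genes known to be induced together with Reg genes moved in parts. It was chosen with earlier results of these data known, so its counts cannot be weighed against the shares of all probes. Of 21 tested, 4 rose and 2 fell in bypassed against sham-operated rats, beside 4.77% and 3.59% of all probes. Duox2, the epithelial hydrogen peroxide generator, rose by 6.27 (SE 0.50, adjusted p = 6.82e-06), and Gpx2, a glutathione peroxidase of the gut epithelium, by 3.03 (SE 0.24, adjusted p = 6.82e-06). Cxcl1, a neutrophil chemokine, fell by 2.35 (SE 0.67, adjusted p = 0.043), and Mt2A, a metallothionein, by 1.91 (SE 0.33). The list's median was -0.11, against -0.02 for all probes. Against Wistar rats, 8 of 21 rose and 0 fell in GK-Sham-PF rats, beside 3.74% and 4.14% of all probes, with S100a8 at 3.78 (well above background in 1 of 5 Wistar rats), Duox2 at 2.84, S100a9 at 2.03 and Lcn2 at 1.91. S100a8 entered the fit through the GK groups alone, so its difference is given with no test, and its place in the counts against Wistar rats carries no weight. In GK-S-30 against Wistar rats 9 rose and 3 fell, beside 11.9% and 12.2%, with Duox2 at 9.11 and Gpx2 at 4.22. With slide as a fixed block the counts were 3, 0 and 2 of 21 in the 3 pairs, and without GK-S-30 rat 3 the count between the operated groups was 10.

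The order of the GK-Sham-PF rats for Duox2 and Gpx2 was not that for Reg3b and Reg3g. Duox2 in GK-Sham-PF rats 1 to 5 read 7.71, 7.5, 8.39, 10.41 and 7.14, with rat 4 highest, rat 3 next and rat 5 lowest. Gpx2 read 10.75, 10.20, 11.40, 11.82 and 10.83, again with rat 4 highest and rat 3 next. Lcn2, the siderophore-binding lipocalin, read 8.69, 9.0, 8.71, 7.84 and 8.03, with rat 2 highest and rat 4 lowest. S100a9, a calprotectin subunit of neutrophils and stressed epithelium, was highest in rats 5 and 3, at 7.64 and 7.11, over 6.71 to 7.09 in the others. In GK-S-30 rats Duox2 ran from 13.71 to 15.61 and Gpx2 from 13.80 to 14.30, above every rat of both other groups, whereas Lcn2 at 5.63 to 8.14 overlapped both.

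**Figure D4:**
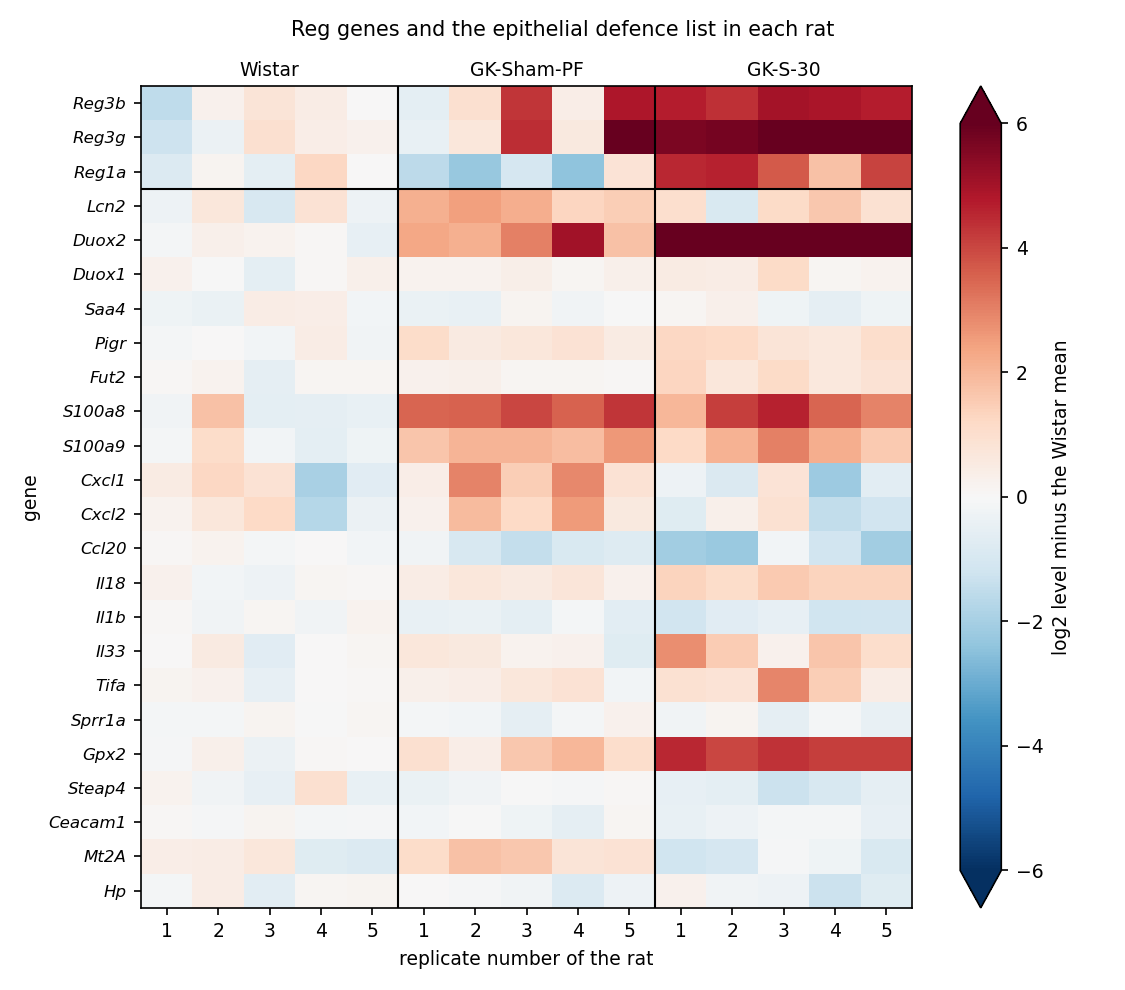
Log2 level minus the mean of the 5 Wistar rats (colour, clipped at 6 either way) of Reg3b, Reg3g and Reg1a and of the 21 tested genes of the epithelial defence list, with each rat in a column under its group. Reg3b and Reg3g were high in GK-Sham-PF rats 3 and 5, Duox2 and Gpx2 were highest in GK-Sham-PF rat 4 within that group, and all 5 GK-S-30 rats were high for Reg3b, Reg3g, Reg1a, Duox2 and Gpx2.

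Other lectins of the mucosa included galectins and C-type lectins. Of 12 tested, 2 rose and 0 fell in bypassed against sham-operated rats, beside 4.77% and 3.59% of all probes. Lgals1, a galectin of connective tissue and muscle, rose by 1.54 (SE 0.21, adjusted p = 0.000437), and Clec2d, a C-type lectin-like surface protein, by 1.06 (SE 0.19, adjusted p = 0.00351). Against Wistar rats Lgals9 and Lgals2 rose in GK-Sham-PF rats, by 0.55 and 0.49, and Mrc1, the macrophage mannose receptor, fell by 0.58. In bypassed against Wistar rats 5 rose and 1 fell, 50% of the list beside 24.1% of all probes, and with slide as a fixed block 1 passed.

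Markers of the cells that can make Reg proteins were set beside these values. Of 8 tested Paneth cell markers, 0 passed the limma threshold in bypassed against sham-operated rats and 0 in GK-Sham-PF against Wistar rats, with medians of 0.03 and -0.09. Against Wistar rats Lyz2 and Pla2g2a, both antibacterial enzymes, were lower in GK-S-30 rats, at -0.51 and -0.67. They were 25% of the list, beside 24.1% of all probes. The summed signal of the list ran from 258538 to 339339 in Wistar, 201330 to 284639 in sham-operated and 220119 to 301532 in bypassed rats. Defa5 was well above background on 0 arrays. Enteroendocrine markers rose in 4 of 16 and fell in 0 between bypassed and sham-operated rats, led by Sct at 0.90 (SE 0.19, adjusted p = 0.00987), while Chga differed by 0.42 (adjusted p = 0.0693) and Reg4 as given above. This count was 2 without any one of GK-Sham-PF rats 1, 2 and 3 and GK-S-30 rats 3 and 5. Of 9 goblet cell markers 2 rose, Clca1 by 0.73 and Klf4 by 0.67, 1 of which was lost without GK-Sham-PF rat 3 or 4, and Muc2 differed by 0.48 (adjusted p = 0.0879). Of all probes, 4.77% rose and 3.59% fell between bypassed and sham-operated rats.

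Acinar cells of the pancreas are the other large source of Reg proteins, and only some of their markers were at or near background. Over the 15 arrays Cela1 read 11.28 to 12.17 and Ctrb1 8.11 to 10.20. Of 23 acinar markers on the array, Pnlip, Cpb1, Cela3b, Clps, Gp2, Pnliprp1 and Ptf1a were well above background on 0 of 15 arrays and Cpa1 on 1. The summed signal of the 15 tested was 4679 to 6832 in Wistar, 5468 to 7240 in sham-operated and 4841 to 5938 in bypassed rats. The part of acinar RNA in the Reg levels was not tested. Of these 15, 1 rose and 2 fell in bypassed against sham-operated rats, with Bhlha15, a transcription factor of secretory cells, at 0.58 (SE 0.13, adjusted p = 0.0131), Spink1 at -1.77 (SE 0.32, adjusted p = 0.00323) and Ctrb1 at -0.92, and 5 of the 15 passed without GK-S-30 rat 2 or 4. Prss1 was well above background in 1 Wistar, 4 sham-operated and 5 bypassed rats. It entered the fit through the bypassed rats alone, so its difference of 2.60 from Wistar rats (SE 0.58) is given with no test. Of 7 gastric markers tested, Muc6 alone passed in bypassed against sham-operated rats, at -0.76, and Pgc differed by -0.07 (SE 0.13). In GK-S-30 against Wistar rats 3 of the 7 were lower, 42.9% beside 24.1% of all probes. Of all probes, 4.77% rose and 3.59% fell between bypassed and sham-operated rats.

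The tissue itself differed in its muscle signal. Of 8 smooth muscle markers, 4 rose in bypassed against sham-operated rats, Actg2 by 2.35, Cnn1 by 2.23, Des by 1.99 and Tagln by 1.45, and Myh11 differed by 0.83 (adjusted p = 0.12). Their summed signal was 86982 to 113209 in GK-S-30 rats, above the 24943 to 52949 of GK-Sham-PF and the 27157 to 47686 of Wistar rats. With slide as a fixed block 3 of the 8 passed. The part of this shift in the Reg differences was not tested. Of 13 enterocyte and general epithelial markers, Krt19 and Krt18 rose, by 0.56 and 0.29, and Epcam, on all epithelial cells, differed by 0.06 (SE 0.11, adjusted p = 0.819). Of the 13, 0 passed without any one of GK-Sham-PF rats 2 to 5 or GK-S-30 rats 1, 2 and 5. Of 12 myeloid and mast cell markers 0 rose and 2 fell, Mcpt1 at -0.89 and Ms4a2 at -0.69, and of 8 lymphoid markers Cd3e and Cd3g fell, at -0.76 and -0.47. The lymphoid count was 1 without Wistar rat 1 or any one of GK-Sham-PF rats 2, 3 and 4 and GK-S-30 rats 1, 2 and 4. Beside all these counts, 4.77% of all probes rose and 3.59% fell between bypassed and sham-operated rats.

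The named probes whose pattern over the 15 arrays was most like each Reg probe were found by Pearson correlation, as a description. For Reg3b and Reg3g alike the first was Otud7a, a deubiquitinating enzyme, at 0.938 and 0.94. Otud7a was well above background in 0 Wistar, 2 sham-operated and 5 bypassed rats, and read 5.14 and 6.32 in GK-Sham-PF rats 3 and 5 against 1.38 to 2.88 in the others of that group. Tmem97, a membrane protein of cholesterol handling, was among the 3 nearest for both, at 0.917 and 0.932, and read 11.57, 11.41, 11.89, 11.48 and 12.31 in GK-Sham-PF rats 1 to 5, so that rats 3 and 5 were its highest as well. Tbc1d22b was nearest after Otud7a for Reg3b, at 0.924, and Tm7sf3 for Reg3g, at 0.933. For Reg1a the nearest were Rhbdl2, a rhomboid protease, at 0.96, Rras, a small GTPase, at 0.94 and Slc16a3, a lactate transporter, at 0.928, and Rhbdl2 kept 0.868 without the group means.

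Reg3a and Reg4 were most like genes that did not divide the groups. The first for Reg3a were Tsen54 at 0.825, Socs3 at 0.823 and Mrrf at 0.809. Those for Reg4 were Man1a2 at 0.869, the monocarboxylate transporter Slc16a7 at 0.851 and the RNA helicase Ddx3x at 0.845. None of these 6 genes passed limma's adjusted threshold in any pair, and GK-S-30 rat 1, highest of all rats for Reg4 at 11.99, was also highest for Man1a2 at 6.21, for Slc16a7 at 7.06 and for Ddx3x at 13.65.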

How the data were processed

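Total RNA of the intestinal pieces was labelled with 1 dye (Cy3) and hybridized to Agilent whole rat genome slides, 1 array per rat as far as the labels say. The deposited array files hold the processed signal intensity, which the authors extracted with Agilent Feature Extraction 10.7.3.1, background-subtracted and not normalized between arrays. The authors also deposited log2 values, quantile-normalized between arrays. Here the intensity of 45018 spots per array was taken to log2 and quantile-normalized in R 4.3.3 with limma 3.58.1. Control and outlier spots were left out and spots of 1 probe averaged. Of 41012 probes, 22503 had a gene name. The limma fit (lmFit, eBayes, all 15 arrays, no covariate) covered the 17029 named probes with a signal well above background in all 5 rats of some group, with Benjamini-Hochberg adjustment over all of them at 0.05, and was tested on simulated data with changes planted in each pair of groups in turn. The authors' ANOVA with Tukey's correction was an alternative.

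The Reg members and all gene lists were chosen with earlier results of these data known. Named genes were every Reg probe, at most 4 called genes per list and pair with the largest difference, the defining genes of each list, and the 3 probes most correlated with each Reg probe. A list gene is its brightest tested probe. The lists named 239 genes, of which 212 were on the array and 180 were tested. Names came from the files, updated through RefSeq accession for 17873 probes, symbol for 2868 and synonym for 519, and kept as given for 1243. The median SE over probes was 0.149 on the log2 scale, and 5 arrays per group limit the precision. Where a group had no array well above background, a fold is given only as a bound. Rats of a group are taken as separate animals from the methods, and the labels do not describe repeat arrays. Alternatives covered scaling, background correction, the authors' log2 values, outlier spots, slide, replicate number, dim probes and left-out arrays. One, leaving out both dimmer arrays together, was chosen after seeing the data. Promoters were searched with Python 3.11.15 and figures drawn with matplotlib. One gene of the lists is not reported here.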

Additional observations from a re-analysis of the deposited data

Results flagged for a closer look

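No Reg probe had a rat far from the rest of its group by Dixon's ratio (over 0.71 for 5 samples), but 13 of 117 groups searched among the named genes did, where chance gives about 1 in 20. Among the genes most like a Reg probe, GK-Sham-PF rat 5 stood apart for Rras at 13.49, above 13.30 to 13.34 in the other four, for Mrrf at 5.76, above 5.23 to 5.38, and for Tm7sf3 at 9.5, above 8.61 to 8.76. GK-S-30 rat 1 stood apart for Man1a2 at 6.21, above 5.28 to 5.40, and for Ddx3x at 13.65, above 13.29 to 13.38.

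Il22ra1 had 1 high rat in each of 2 groups, Wistar rat 3 at 7.20 above 6.50 to 6.62 and GK-Sham-PF rat 5 at 7.48 above 6.63 to 6.85, and these are the rats of the 2 dimmer arrays. In GK-S-30 rats, Myd88 read 7.77 in rat 3 above 6.85 to 6.97, Lcn2 read 5.63 in rat 2 below 7.47 to 8.14, and Epcam read 14.56 in rat 5 below 14.82 to 14.91. Nos2, which was well above background on 1 of 15 arrays, read 4.33 in GK-S-30 rat 3 against 1.30 to 1.61 in the other four. In Wistar rats, Extl3 read 6.10 in rat 5 above 4.34 to 4.65, and S100a9 read 6.16 in rat 2 above 4.49 to 4.97.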

How the results depend on the processing

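The Reg differences kept their direction under every alternative run for Reg1a, Reg3b and Reg3g, and values close to 0 changed sign in 3 of 23 alternatives for Reg3a and 3 of 23 for Reg4 between GK-S-30 and Wistar rats, and in 1 of 24 for Reg4 between the operated groups. With slide as a fixed block the GK-S-30 against Wistar difference of Reg3g was 5.21 and the bypassed against sham-operated difference of Reg4 was 1.06, which is also its value within slide C. That block left 327 probes called in bypassed against sham-operated, 210 in GK-Sham-PF against Wistar and 268 in GK-S-30 against Wistar. It compares groups within 2 of the 4 slides, and the cause of this fall was not tested. The methods' ANOVA with Tukey's correction, not adjusted over genes, called 2565 and 2373 in the first 2 pairs. The cause of the other shifts was not tested.

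With each array left out in turn, the bypassed against sham-operated difference ran from 4.73 to 5.53 for Reg1a, 2.11 to 3.47 for Reg3b, 3.09 to 4.71 for Reg3g, -0.51 to -0.08 for Reg3a and -0.06 to 0.43 for Reg4. In GK-Sham-PF against Wistar rats it ran from -1.81 to -0.98, 1.26 to 2.62, 1.31 to 2.93, 0.23 to 0.67 and -0.39 to -0.05 in the same order. In GK-S-30 against Wistar rats it ran from 3.50 to 4.22, 4.35 to 4.93, 5.70 to 6.26, -0.04 to 0.40 and -0.24 to 0.24. The probes called ran from 937 to 1726, 997 to 1473 and 3364 to 4531 in the 3 pairs, with the lowest of the first pair, 937 and 947, without GK-Sham-PF rats 2 and 1.

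Arrays of the same replicate number did not deviate together, with mean correlations of -0.139 to -0.00459 after the group means were removed, so the numbers do not pair the rats. With the replicate number as a block, 963, 986 and 3350 probes were called in the 3 pairs and the Reg differences, 5.01 for Reg1a among them, were those without it. Without both dimmer arrays 1880, 1572 and 4775 were called, and the bypassed against sham-operated difference was 3.47 for Reg3b and 4.71 for Reg3g. Of 45 counts of list genes called, 8 stayed within 1.5 times with the slide block. Precision is limited by 5 arrays per group.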

Other observations

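St6galnac1, a sialyltransferase of goblet cells, was well above background in 0 of 5 Wistar rats and in all 10 GK rats, and was at least 1763-fold higher in GK-Sham-PF and at least 1232-fold higher in GK-S-30 rats. It entered the fit through the GK groups alone, so these bounds are given with no test. The bound sets the mean of the brighter group against the lowest signal well above background on each Wistar array, or the probe's own signal where that was higher. Itgam, an integrin of myeloid cells, was 2.08 lower on the log2 scale in GK-Sham-PF than in Wistar rats (-2.08, SE 0.21, adjusted p = 6.43e-06). Amy2a3, a pancreatic amylase, was 4.12 higher in GK-Sham-PF than in Wistar rats (SE 0.57, adjusted p = 0.000195), and Pnliprp2, a lipase relative, differed by -2.13 (SE 0.37, adjusted p = 0.00144). In GK-S-30 rats both overlapped the Wistar range only in part. Amy2a3 read 7.27, 4.98, 5.55, 7.82 and 7.77 in GK-S-30 rats 1 to 5, against 2.87 to 5.76 in Wistar rats. Pnliprp2 read 5.47, 6.01, 6.50, 7.62 and 6.90, against 6.72 to 8.12 in Wistar rats.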
